A study of Vulpes lagopus with 12 samples.

Results

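The subunits of the mitochondrial respiratory chain were followed in the blood of Arctic foxes (Vulpes lagopus) on Affymetrix Canine Genome 2.0 arrays. Members were all probe sets whose single gene symbol named a nuclear subunit of complexes I to V (symbols NDUFA, NDUFB, NDUFC, NDUFS or NDUFV followed by a digit, SDHA to SDHD, those starting with UQCR, CYC1, those starting with COX4 to COX8, and those starting with ATP5), without the NDUFAF assembly factors. This gave 63 genes of 15115 and 119 probe sets of 42924. Complex I held 34 genes (59 probe sets), complex II 4 genes (6), complex III 8 genes (23), complex IV 7 genes (14) and complex V 10 genes (17). Each gene was read from 1 probe set, the one whose mean over the 12 arrays was highest. Of the 63 symbols, 47 stood in the RefSeq annotation of the Arctic fox and 16 were not found there under that name. ATP5J2 is an older symbol of ATP5MF, subunit f of ATP synthase.

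The respiratory chain is a row of protein complexes in the inner mitochondrial membrane. Complexes I and II take electrons from NADH and succinate, coenzyme Q carries them to complex III, and cytochrome c carries them on to complex IV, which reduces oxygen. Complexes I, III and IV pump protons, and complex V, the ATP synthase, uses the return of these protons to make ATP. Most subunits are encoded in the nucleus; the few encoded in mitochondrial DNA do not match the symbols above and were not analysed here. In blood, mitochondria are found in white cells, platelets and reticulocytes, and are lost as red cells mature.

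Total RNA came from blood taken into PAXgene tubes, which fix RNA at collection, and 12 arrays were run: 11 of foxes, numbered 1 to 11 in the order of the series, and 1 whose title names a canine control. The labels gave no age, sex or exposure for single foxes, although the design statement asks about polychlorinated biphenyls and mercury, so foxes were put in no groups. The control array carries the fox organism label and the blood labels as well, and has no replicate; the sources used here do not say what RNA it held. The labels did not say that the 11 fox samples came from 11 animals, so p-values measure the spread between these samples, which may be partly technical. All values are on the log2 scale, where a difference of 1 is a doubling of the signal, and the number of arrays limits the precision.

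Some arrays stood apart before any respiratory chain gene was read. On the control array 7 liver markers had a mean of 13.52, against 6.51 to 6.86 in the foxes, and 8 muscle markers had a mean of 11.52, against 7.79 to 8.12. In the fit described below, 7 of 7 liver, 6 of 8 muscle and 5 of 7 intestine and kidney markers were called higher on it, and 4 of 6 neutrophil, 3 of 5 platelet, 4 of 7 lymphocyte and 5 of 6 reticulocyte markers lower. The other 2 intestine and kidney markers were lower, with a difference as low as −1.96. Over all genes 18.5% were called higher and 44.6% lower, so the lymphocyte and platelet counts lay near that background. The mean of 6 neutrophil markers was 6.70 on the control and 9.26 to 11.33 in the foxes, and that of 5 platelet markers was 6.54 and 7.93 to 9.74. Among the foxes, the GAPDH quality probe sets, set near the 3′ end and in the middle of the transcript, differed by 2.56 to 3.19 in foxes 1 to 8, by only 0.42 to 1.08 in the other foxes, and by −0.08 on the control. The older GAPDH control probe sets did not separate the foxes in this way, with −0.77 to −0.28 in foxes 1 to 8 against −0.96 to −0.60 in foxes 9 to 11. The ACTB quality probe sets separated them, at 2.14 to 5.21 in foxes 1 to 8, 0.16 to 0.26 in the other foxes and 2.54 on the control, and the older ACTB and the EEF1A1 sets did not. Results below are therefore given with and without foxes 9, 10 and 11. In bulk samples fewer cells of a type and less RNA per cell cannot be told apart.

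Respiratory chain genes lay above the foxes on the control array in all 5 complexes. By limma with Benjamini-Hochberg adjustment over all probe sets (threshold 0.05), 46 of 63 genes were higher on the control, 2 were lower (NDUFA4L2 and COX4I2) and 15 were not called, beside 18.5% of all genes called higher and 44.6% called lower. The median control minus fox difference was 2.26 over the 63 genes and −0.53 over all genes. The control value was above all 11 foxes for 54 members and below all for 2, while these shares were 21.7% and 56.1% over all genes. Against foxes 1 to 8 alone, 55 members were higher and 3 lower, with a median of 2.67, beside 22.9% of all genes higher and 51.6% lower. Counted by probe set, 78 of the 119 were higher and 9 lower, beside 18.9% and 42.1% of all probe sets.

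The number of calls depended on the scaling. After quantile normalization again, 32 genes were higher and 1 lower and the median was 1.42, beside 16.4% of all genes higher and 33.2% lower with a median of −0.41. Centring each array on its median gave 46 higher and 1 lower, with the median of all genes at −0.26. That centring also changed the split of calls over all genes from 2799 higher and 6748 lower to 3180 higher and 3923 lower. The smallest p that an exact permutation test allows for 1 array against 11 is 0.0833, and the limma fit assumes that the control varies as the foxes do. The part of the liver and muscle RNA on the control array in these differences was not tested.

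**Figure D1:**
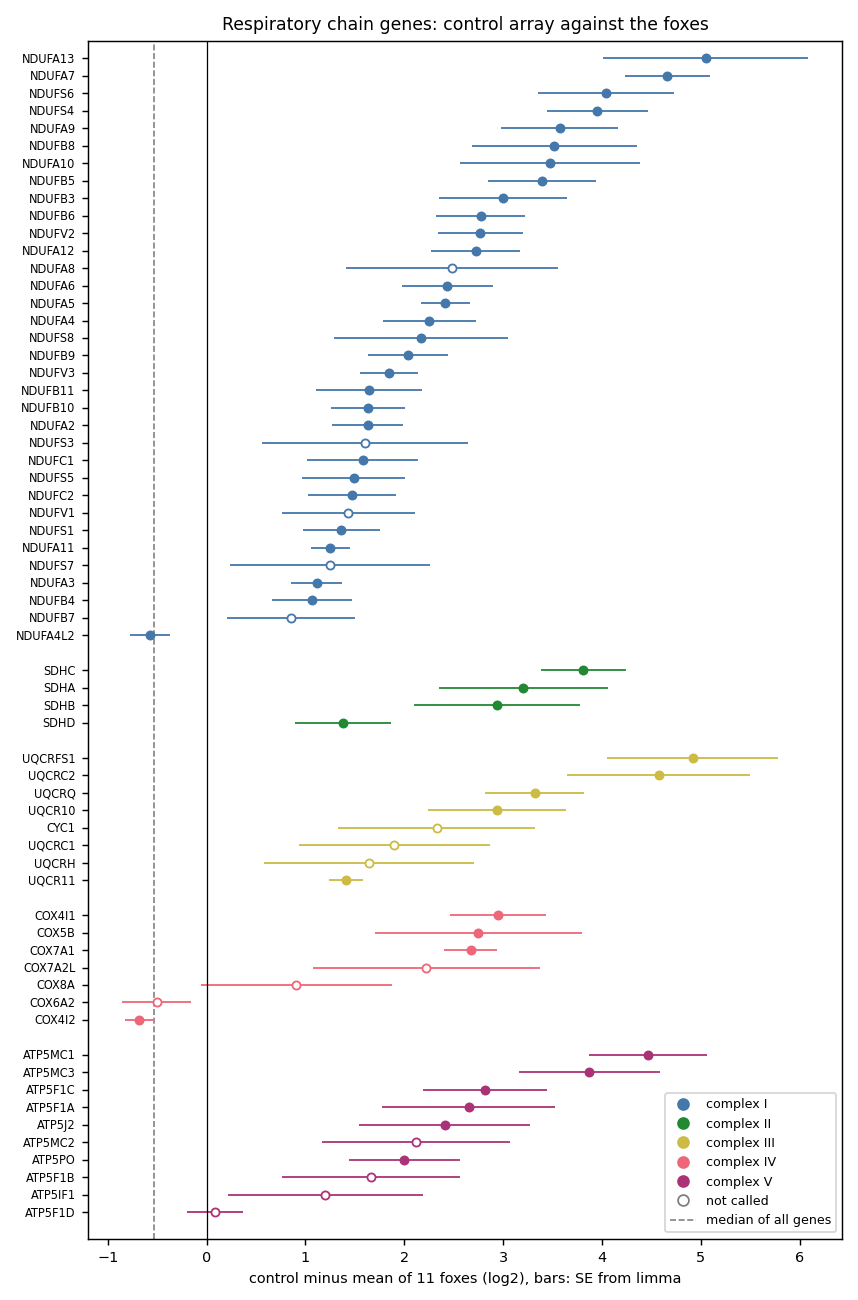
Control minus mean fox difference (log2, horizontal axis) for each of the 63 genes, grouped by complex and sorted within it, with the SE from limma as bars. Filled points were called and open points were not; nearly all points lie right of 0, while the median of all genes, the dashed line, lies at −0.53.

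Complex I, which oxidises NADH, had 28 of its 34 genes higher on the control, 1 lower and 5 not called, with a median difference of 2.11 (2.23 against foxes 1 to 8 and 1.82 against foxes 9 to 11). The accessory subunits, which surround the catalytic core, made up most of the higher calls: 10 of 11 NDUFA genes (NDUFA4 and NDUFA4L2 apart), 8 of 9 NDUFB genes and all 6 accessory genes of the NDUFC, NDUFS and NDUFV series. Of the 6 nuclear core genes measured, most of whose products (not that of NDUFS3) hold the flavin or iron-sulphur clusters, 3 were higher and 3 were not called. The median difference was 2.49 for the NDUFA genes, 2.04 for the NDUFB genes and 1.52 for the core genes, a description with no test between roles.

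NDUFA13, an accessory subunit also known for a part in cell death, ranged in the foxes from 6.04 through a median of 6.76 to 8.90 and stood at 12.18 on the control. No fox reached the control, and foxes 9, 10 and 11 were the 3 highest, at 8.71 to 8.90. The difference was 5.05 (SE 1.04, adjusted p by limma 0.0016), and 5.67 (SE 0.31) against foxes 1 to 8. NDUFA7, another accessory subunit, ranged from 6.69 through 7.14 to 8.03 and stood at 11.94. Here foxes 9 to 11 lay among the others, and the difference was 4.66 (SE 0.43, adjusted p by limma 2.4e-06). NDUFS6, a zinc-binding accessory subunit, ranged from 7.19 through 7.56 to 9.16 and stood at 11.93, a difference of 4.04 (SE 0.69, adjusted p by limma 0.00045).

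In 4 of the 5 genes not called, foxes 9 to 11 lay above all of foxes 1 to 8 and nearer to the control. NDUFS7, a core iron-sulphur subunit, ran from 8.08 to 9.46 in foxes 1 to 8, from 10.18 to 11.47 in foxes 9 to 11, and stood at 10.51 on the control. The control thus lay inside the range of the foxes, with a difference of 1.25 (SE 1.01, adjusted p by limma 0.296) over all 11 and of 1.81 (SE 0.41, adjusted p 0.0028) against foxes 1 to 8. NDUFA8, an accessory subunit facing the intermembrane space, had a difference of 2.49 (adjusted p by limma 0.061), and without fox 9, fox 10 or fox 11 it was called, with adjusted p-values from 0.0284 to 0.0442. NDUFS3 was the other gene not called: its foxes were spread over 6.82 to 10.34, with fox 2 above the control value of 10.09, so it was called neither over all foxes nor against foxes 1 to 8.

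NDUFA4 and NDUFA4L2 bear complex I symbols, but the NDUFA4 protein was later placed in complex IV. NDUFA4 ranged from 9.87 through 10.77 to 11.36 in the foxes and stood at 12.98 on the control, a difference of 2.26 (SE 0.47, adjusted p by limma 0.0017). Its relative NDUFA4L2, known as a gene induced by low oxygen, went the other way, from 5.83 through 6.08 to 6.35 in the foxes to 5.51 on the control. That difference of −0.57 (SE 0.21, adjusted p by limma 0.0298) was close to the median of all genes and was not called after quantile normalization again (−0.33) or with centred arrays (−0.30).

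Complex II, the succinate dehydrogenase shared with the citric acid cycle, was the one complex whose genes were all called higher, 4 of 4, with a median of 3.07. SDHA, the flavoprotein that oxidises succinate, ranged from 8.67 through 9.22 to 11.07 in the foxes and stood at 12.75 on the control, a difference of 3.20 (SE 0.86, adjusted p by limma 0.0071). SDHB, the iron-sulphur subunit, ranged from 8.02 through 8.44 to 10.24 and stood at 11.80, a difference of 2.94 (SE 0.84). In both catalytic genes foxes 9 to 11 were the 3 highest and lay apart from the rest. The membrane anchors SDHC and SDHD differed by 3.81 (SE 0.43) and 1.38 (SE 0.49). SDHC ranged from 10.03 through 10.68 to 11.66, with fox 6 the highest and foxes 9 to 11 in the middle, and stood at 14.51 on the control. SDHD was not called after quantile normalization again, with a difference of 0.96 (adjusted p by limma 0.0889).

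Complex III, which passes electrons from coenzyme Q to cytochrome c, had 5 of 8 genes called higher and 0 lower, and the control was above all foxes for all 8. Each of the 8 differences was positive, from 1.41 to 4.92, with a median of 2.64, so at an unadjusted p 0 were lower too. UQCRFS1, the Rieske iron-sulphur protein, ranged from 6.47 through 7.34 to 9.02 and stood at 12.52, a difference of 4.92 (SE 0.87, adjusted p by limma 0.00058). The other probe set of UQCRFS1 was slightly brighter in the foxes (mean 7.65 against 7.60) and gave a smaller difference, 3.64 (SE 0.49). The set read here had the higher mean over the 12 arrays only through its control value, 12.52 against 11.29. UQCRC2, a core protein, ranged from 7.86 through 8.48 to 10.51 and stood at 13.42, a difference of 4.57 (SE 0.92). UQCRQ, a small subunit, ranged from 9.75 through 10.21 to 11.57 and differed by 3.32 (SE 0.50), with no fox near the control. CYC1 (cytochrome c1), UQCRC1 and UQCRH were not called, with differences of 2.33, 1.90 and 1.64. Against foxes 1 to 8, CYC1 and UQCRC1 were called, at 2.85 and 2.42, and UQCRH was not, at 1.90 (SE 1.09, adjusted p by limma 0.137). CYC1 was also called without fox 9 (2.49) or without fox 10 (2.51).

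Complex IV, cytochrome c oxidase, had 3 of 7 genes higher, 1 lower and 3 not called. Several of its subunits come as isoforms of different tissues, and these did not move together. COX4I1, the isoform found in most tissues, ranged from 11.12 to 12.93 (mean 12.04 ± 0.50, SD, n = 11) and stood at 14.98 on the control, a difference of 2.95 (SE 0.48, adjusted p by limma 0.00034). COX4I2, its lung isoform, ranged from 8.32 through 8.59 to 8.71 and stood at 7.89, below every fox, a difference of −0.68 (SE 0.14, adjusted p by limma 0.0016). Its second probe set gave 0.25 and was not called, nor was the mean of both (−0.22). COX7A1, the heart and muscle isoform of subunit VIIa, lay within 8.23 to 9.07 in the foxes and stood at 11.54, a difference of 2.67 (SE 0.27, adjusted p by limma 4.7e-06). COX6A2, the heart and muscle isoform of subunit VIa, lay within 7.84 to 9.08 and stood at 8.06, inside the foxes, a difference of −0.50 (SE 0.35, adjusted p by limma 0.2195). It was called lower against foxes 1 to 8 (−0.64, adjusted p by limma 0.0416). Its second probe set stood at 7.22 on the control, below every fox (7.76 to 8.43), and was called lower (−0.87). The mean of both was also called lower (−0.69). The median difference over all genes was −0.53.

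Of the muscle isoforms of complex IV, COX7A1 was thus above every fox and COX6A2 was not, on an array with high muscle markers. MYH2, a fast muscle myosin in that marker list, differed by 9.01, and MYH7, the slow and cardiac myosin, by −0.50 and was not called. The remaining genes of complex IV had foxes 9 to 11 above all of foxes 1 to 8. COX5B, a subunit on the matrix side, ranged from 9.34 through 10.15 to 12.26 and stood at 13.27, a difference of 2.75 (SE 1.05, adjusted p by limma 0.0379). The call did not hold without fox 3, 4, 7 or 8, where the adjusted p lay between 0.0503 and 0.0508. COX8A, the common isoform of subunit VIII, stood at 13.56 on the control and between 13.81 and 13.97 in foxes 9 to 11, so these foxes were above the control. Its difference of 0.91 (SE 0.97) turned to −0.21 after quantile normalization again, and neither was called. Of its other probe sets, that at 1.37 was called higher, with the control above every fox, and those at 0.97 and 0.75 were not called. COX7A2L, a factor that joins complexes III and IV, differed by 2.22 (SE 1.15, adjusted p by limma 0.1089) over all foxes and by 2.90 (SE 0.40, adjusted p 0.00017) against foxes 1 to 8. Its second probe set (2.86) and the mean of both (2.54) were called higher over all foxes.

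Complex V had 6 of 10 genes higher, 0 lower and 4 not called, with a median of 2.26; all 10 differences were positive, so 0 were lower at an unadjusted p as well. The 3 genes of the c ring, the rotor through which protons flow, encode the same mature protein with different import sequences. ATP5MC1 ranged from 8.08 through 8.40 to 9.83 and stood at 13.18, a difference of 4.47 (SE 0.60, adjusted p by limma 7.2e-05). ATP5MC3 ranged from 9.53 through 10.20 to 11.86 and stood at 14.31, a difference of 3.87 (SE 0.71). ATP5MC2 ranged from 11.29 through 11.81 to 13.81 and stood at 14.29, a difference of 2.12 (SE 0.95, adjusted p by limma 0.0693). For all 3 genes the control was above every fox and foxes 9 to 11 were above the rest. ATP5MC2 was called against foxes 1 to 8, at 2.69 (SE 0.28, adjusted p 2.5e-05), and also without fox 9, fox 10 or fox 11 alone, with adjusted p-values from 0.0330 to 0.0409.

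The catalytic head of ATP synthase was not uniform. ATP5F1C, the gamma subunit that turns inside the head, ranged from 10.10 through 11.45 to 12.29 and stood at 14.12, a difference of 2.82 (SE 0.63, adjusted p by limma 0.0026). ATP5F1A, the alpha subunit, differed by 2.65 (SE 0.87), and its other probe sets gave 3.35 and −0.48, neither of them called. ATP5F1B, the catalytic beta subunit, differed by 1.67 (SE 0.90, adjusted p by limma 0.1235), which was called against foxes 1 to 8 (2.12, adjusted p 0.0081). ATP5IF1, the inhibitor that stops the enzyme from consuming ATP, differed by 1.20 (SE 0.99) and was not called, and fox 2 lay above the control.

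Among the foxes themselves the respiratory chain genes varied more than most genes. The SD over the 11 foxes was at least 0.5 for 40 of 63 members, beside 18.3% of all genes, and the median SD was 0.59 against 0.23. Over foxes 1 to 8 alone 20 of 63 reached this SD, beside 9.61% of all genes, with medians of 0.39 and 0.19. The count by complex over 11 foxes was 17 of 34 for complex I, 3 of 4 for complex II, 7 of 8 for complex III, 4 of 7 for complex IV and 9 of 10 for complex V. Without fox 2, 17 members reached the SD over the other foxes of 1 to 8, beside 8.34% of all genes.

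Foxes 9, 10 and 11 all lay above every one of foxes 1 to 8 for 30 of 63 members and all below for 1, the muscle isoform COX7A1. Over all genes these shares were 14.2% above and 14.6% below. The median gap between the means of foxes 9 to 11 and 1 to 8 was 0.87 for the members and −0.10 for all genes. By complex, the genes with the 3 foxes above were 15 of 34, 3 of 4, 4 of 8, 3 of 7 and 5 of 10 in the order I to V. These foxes are no group of the study and no test was made between them and the rest; that they also differ in GAPDH and ACTB quality probe sets and in blood cell markers was measured, and its part in the gap was not tested. Platelet markers had means of 7.93 to 9.28 in foxes 1 to 8 against 9.44 to 9.74 in foxes 9 to 11, lymphocyte markers had 7.77 to 8.04 and 8.29 to 8.58, and neutrophil markers, which overlapped, 9.26 to 10.55 and 10.21 to 11.33.

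**Figure D2:**
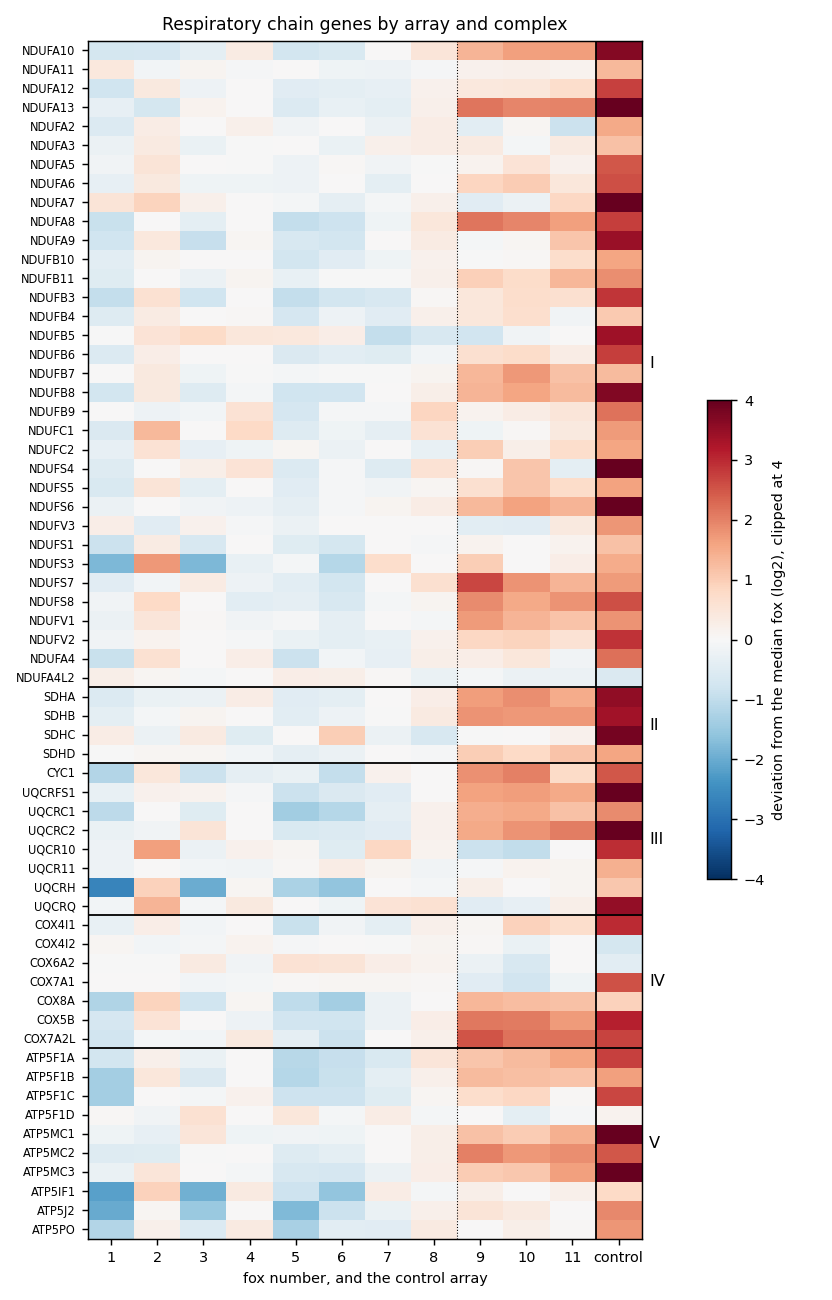
Deviation of each gene from its median fox (log2, colour scale clipped at 4) for the 11 foxes and the control, with genes in rows grouped by complex I to V and, within it, by role. Columns 9 to 11 are red for most members, with 48, 50 and 51 of 63 genes above the median fox, and the control column is darker still, with 60 of 63.

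Within a complex the gap differed between roles, which is described here without a test. The catalytic pair of complex II, SDHA and SDHB, had a gap of 1.84 each, and the anchors SDHD and SDHC had gaps of 1.05 and 0.05; the other probe sets of SDHC gave 1.62 and 0.56. In complex III the catalytic and core genes had gaps of 1.84 to 1.96: UQCRFS1 lay at 6.47 to 7.52 in foxes 1 to 8 against 8.87 to 9.02 in foxes 9 to 11, and UQCRC1 at 11.40 to 12.98 and 13.98 to 14.32. The 4 small subunits of the same complex had a median gap of −0.21, and none of them had foxes 9 to 11 apart. UQCR10 was at 10.29 to 12.40 in foxes 1 to 8 and at 9.79 to 10.77 in foxes 9 to 11, a gap of −0.85, and UQCRQ had a gap of −0.50. This contrast in complex III depended on the probe set: the other 3 of UQCRC2 had gaps of 0.15, −0.07 and −0.16, and the other of UQCRFS1 had 0.86. SDHA, SDHB, CYC1, UQCRFS1 and UQCRC2 were read from probe sets ending _s_at, a kind explained below. UQCRC1, the anchors of complex II and the small subunits of complex III were not. The part of the probe set kind in the contrast between roles was not tested. In complex I the widest gaps were in NDUFA13 (2.27), NDUFA8 (2.25) and the core gene NDUFS7 (2.06). In complex IV they were in COX7A2L (2.48), COX5B (2.19) and COX8A (1.70), and COX7A1, at 8.88 to 9.07 and 8.23 to 8.80, went the other way. In complex V, ATP5MC2 had a gap of 2.08, ATP5F1A of 1.69 and ATP5F1B of 1.67, while that of ATP5F1D, the delta subunit of the head, was −0.28. The other probe sets of ATP5F1A had gaps of 3.20 and −1.06, the latter with foxes 9 to 11 all below the rest. The other probe set of ATP5F1D had a gap of 0.57, with foxes 9 to 11 above the rest, and was called higher on the control (0.87, adjusted p by limma 0.0293).

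Foxes 1 to 8 also differed from each other in these genes. Fox 2 was the highest of the 8 for 31 of 63 members (49.2%, beside 26.6% of all genes) and fox 8 for 17 (27.0%, beside 12.2%). Fox 5 was the lowest for 19 members (30.2%, beside 12.1% of all genes), fox 1 for 17 (27.0%, beside 19.3%) and fox 6 for 12 (19.1%, beside 11.5%). The widest spread was in UQCRH, the hinge protein of complex III, NDUFS3, a core subunit of complex I, and ATP5IF1, with SDs of 1.23, 1.22 and 1.17 over foxes 1 to 8.

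In foxes 1 to 8, in order, UQCRH was at 11.35, 14.94, 12.03, 14.08, 12.75, 12.42, 14.01 and 13.94. NDUFS3 was at 6.82, 10.34, 6.82, 8.31, 8.55, 7.49, 9.33 and 8.62, and ATP5IF1 at 11.83, 14.94, 12.09, 14.38, 13.19, 12.42, 14.30 and 13.94. In all 3 genes fox 2 was the highest and foxes 1, 3 and 6 were the 3 lowest. ALAS2, which starts haem synthesis in developing red cells and belongs to the reticulocyte marker list, was at 10.89, 14.95, 10.93, 13.06, 13.07, 11.60, 13.71 and 13.51 in the same foxes. It shared the highest fox and the 3 lowest with these members, and was picked from its list after the values were seen. Of the other 5 genes of that list, EPB42, KLF1 and TFRC were highest in fox 2 too, SLC4A1 in fox 4 and HEMGN in fox 5, and foxes 1, 3 and 6 were the 3 lowest for SLC4A1 but not for the rest. The mean of the 6 reticulocyte markers ran from 7.64 to 8.75 in foxes 1 to 8, and the part of reticulocyte RNA in the spread of these members was not tested. On the control the genes parted: ALAS2 was at 6.57, far below every fox, and UQCRH at 15.09, above every fox. HEMGN, unlike the other reticulocyte markers, was called higher on the control, by 3.32.

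**Figure D3:**
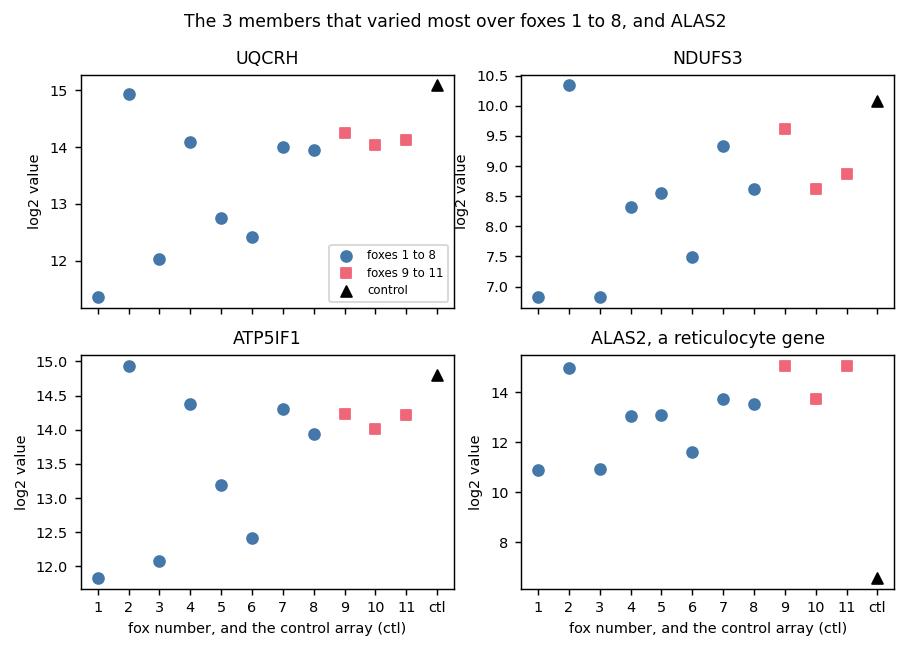
Log2 values of UQCRH, NDUFS3 and ATP5IF1, the members with the largest SD over foxes 1 to 8, and of the reticulocyte gene ALAS2, by fox and on the control (1 point per array; the vertical axes differ). Fox 2 is the highest and foxes 1, 3 and 6 are the lowest of foxes 1 to 8 in each panel, and the control lies high in the first 3 panels and low for ALAS2.

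Further members with a wide spread over foxes 1 to 8 were the following. NDUFB5, a membrane subunit of complex I, had its lowest values in foxes 7 and 8, at 8.14 and 8.48, against 9.10 to 9.87 in foxes 1 to 6. Its other probe set did not set these 2 foxes apart: fox 1 was lowest (7.85), fox 7 was at 7.91 and fox 8 at 8.37, and fox 2 was highest (8.65). SDHC, in the probe set used, was highest in fox 6, at 11.66, and lowest in fox 8, at 10.03. Its other probe sets did not show this order: among foxes 1 to 8, fox 2 was highest in 1 (10.25) and fox 8 in the other (7.18). NDUFC1, a small membrane subunit, and UQCR10 were highest in fox 2, at 13.76 and 12.40. The other probe sets of NDUFC1, at far lower values, differed: in 1 fox 2 was the lowest of foxes 1 to 8 (4.86), and in the other fox 6 was the highest (5.26). For UQCR10 foxes 1, 3 and 6 were again the 3 lowest, at 10.57, 10.52 and 10.29, and for NDUFC1 they were not. UQCRC1, COX8A, ATP5F1B and ATP5J2 had SDs of 0.60, 0.77, 0.65 and 0.90, with fox 1, 5 or 6 lowest in each.

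Several members had more than 1 probe set, and these did not always give the same answer. Of 38 such genes, 21 had all probe sets on the same side of the test, 13 had called and uncalled probe sets, and 4 had calls in opposite directions: UQCRH, UQCR11, NDUFC1 and NDUFA6. For UQCRH the differences ran from −2.54 to 3.60. Its probe set with the highest mean was not called (1.64), 2 were called higher, and 1, at 8.82 to 11.60 in the foxes and 7.59 on the control, was called lower. UQCR11, a small subunit of complex III, had 6 probe sets, of which 3 were higher, 2 lower and 1 not called, from −1.55 to 2.14. NDUFC1 ran from −0.49 to 4.51, and NDUFA6, an accessory subunit, from −0.83 to 2.44. For NDUFA6 a single probe set carried the higher call, and the other 2 were lower.

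**Figure D4:**
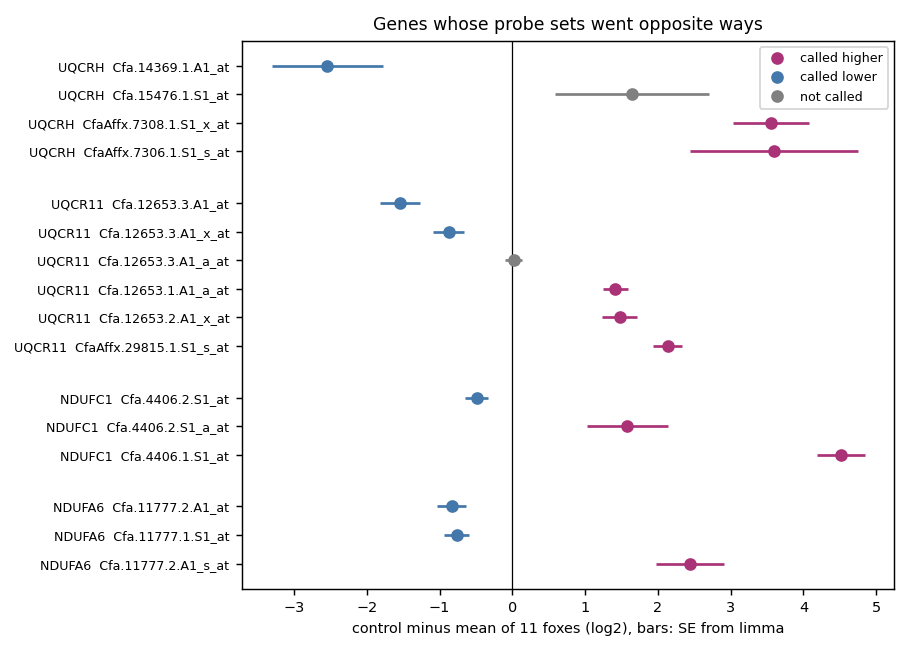
Control minus mean fox difference (log2, with the SE from limma as bars) for each probe set of the 4 genes whose probe sets were called in opposite directions. UQCRH spans −2.54 to 3.60 and UQCR11 −1.55 to 2.14, with points on both sides of 0 in every gene.

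In further genes the sizes were far apart, with no calls in opposite directions. NDUFS3, not called through its brighter probe set (1.60), had a second at 3.40 to 5.93 in the foxes and 10.52 on the control, a difference of 6.61 (SE 0.69), which was called. NDUFA4 had a second probe set at 3.64 to 4.24 in the foxes and 10.78 on the control, a difference of 6.94 (SE 0.21). The lowest value in the whole table was 3.23. In these second sets of NDUFS3 and NDUFA4 the foxes lay near it, apart from fox 2 at 5.93 for NDUFS3. In the set used for NDUFA4 the same foxes were at 9.87 to 11.36, so the size of such differences depended on the probe set. NDUFB6, another membrane subunit of complex I, had probe sets at −0.01, 2.77 and 4.58, and UQCRC2 had 4 between 0.26 and 4.57. Probe sets of 1 gene also disagreed on foxes 9 to 11. In SDHC the probe set used showed no separation, while another was at 9.68 to 10.25 in foxes 1 to 8 against 11.30 to 11.70 in foxes 9 to 11.

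The ending of a probe set name tells how its probes were chosen on this array type: sets ending _s_at share probes between transcripts, and those ending _at are unique to a single transcript. In 14 members both kinds were made for the same design sequence. The gap of foxes 9 to 11 over foxes 1 to 8 was larger in the _s_at set for 13 of the 14, COX6A2 being the exception, with medians of 1.65 in the _s_at sets and 0.33 in the _at sets. Foxes 9 to 11 were above all of foxes 1 to 8 in 10 of the _s_at sets and 4 of the _at sets. COX4I1 had gaps of 2.45 and 0.73, UQCRC2 of 1.96 and 0.15, and NDUFB9 of 1.73 and 0.26. Over the 2341 such pairs of the whole table the _s_at gap was larger in 60.7%, with medians of −0.03 and −0.11. The cause was not tested. Without probe sets ending _s_at or _x_at, 39 of the 63 genes were left, of which 24 were called higher and 4 lower.

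**Figure D5:**
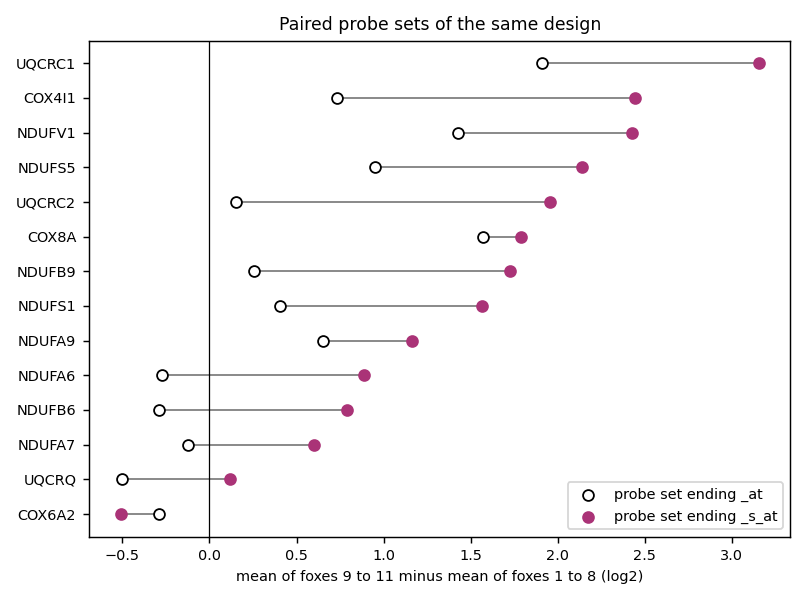
Gap between the means of foxes 9 to 11 and foxes 1 to 8 (log2) for 14 genes with paired probe sets of the same design, with open points for the set ending _at and filled points for the set ending _s_at. The filled point lies to the right in every gene but COX6A2.

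Genes that build and feed the chain were read in the same fit, and the shares of all genes above serve as their background. Assembly factors, which are no part of the finished complexes, had calls in both directions. For complex I, 7 of 15 measured factors were higher and 1 lower, with a median of 0.56. For complexes II, III, IV and V, 2 of 4, 3 of 5, 8 of 15 and 1 of 3 were higher, and 1 of them, of complex IV, was lower, with medians of 0.73, 1.19, 0.78 and 0.02. LRPPRC, which binds mitochondrial messenger RNA, differed by 4.83, and SCO1, a copper chaperone of complex IV, by 4.05. NDUFAF4, a complex I factor, had the widest fox range of these lists, from 6.26 in fox 9 to 12.44 in fox 1, and its difference of −0.61 (SE 2.23) was not called.

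A list of electron carriers and related genes, most of them for enzymes that make coenzyme Q, had 11 of 15 higher and 2 lower, with a median of 1.44. It held CYCS, ETFA, ETFB, ETFDH and NDUFAB1, and the COQ and PDSS genes of coenzyme Q synthesis. CYCS, cytochrome c itself, ranged from 9.22 through 9.50 to 10.02 in the foxes and stood at 13.45, a difference of 3.94 (SE 0.25, adjusted p by limma 4.4e-08). Foxes 9 to 11 lay among the others for CYCS, with a gap of 0.10. The citric acid cycle and pyruvate dehydrogenase had 10 of 15 higher and 1 lower, with a median of 2.98, among them DLD, a shared dehydrogenase subunit, at 6.28. Carriers of the mitochondrial membranes had 5 of 8 higher and 1 lower, with a median of 2.76. Of the ADP/ATP carriers, SLC25A5 and SLC25A4 differed by 4.70 and 4.40, and SLC25A6 by 1.21, which was not called. For SLC25A6 foxes 9 to 11, at 14.81 to 14.91, lay above the control at 14.35. UCP2, an uncoupling protein abundant in white cells, differed by −2.43. Regulators of mitochondrial gene expression lay near the background of all genes, with 3 of 10 higher, 5 lower and a median of −0.52. TFAM, which packages mitochondrial DNA, was higher by 2.33 and PPARGC1A, a coactivator of mitochondrial biogenesis, was lower by a difference of −0.48, close to the median of all genes.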

How the data were processed

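Blood RNA of 11 fox samples and 1 canine control was measured on 1-colour arrays. The deposited log2 values came from RMA, which the authors ran in Affymetrix Expression Console as the submitters' processing notes record; the sources used here name no versions and do not say whether the arrays were normalized jointly. They hold no detection call, so no floor could be set. Of 43035 probe sets, 111 were controls and 42924 were tested. Probe sets with 1 symbol in the platform annotation (29254) named genes; 5 probe sets with several symbols that include a member were left out, and no genome positions are given.

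The control was compared with the foxes by limma 3.58.1 in R 4.3.3 (lmFit and eBayes) with Benjamini-Hochberg adjustment over all tested probe sets, threshold 0.05. The fit was also run on simulated arrays. There the control was drawn with the spread of the foxes, so that run cannot test the assumption that the control varies as they do. SDs over foxes were counted from 0.5. Named genes were, per complex, the 3 with the largest called differences in each direction, the 3 with the largest SD over foxes 1 to 8 and the 3 with the largest gap of foxes 9 to 11, all of complex II, tissue isoforms, genes with opposite probe sets and the 5 with the widest range among probe sets, with the largest of the other lists. Members and lists were chosen with earlier results of these data known. A gene named beyond this rule (ATP5F1D, NDUFB9, PPARGC1A, UCP2) was chosen after its values were seen. SLC4A1, KLF1 and TFRC, also beyond the rule, were named to complete the reticulocyte list beside ALAS2. Alternatives were quantile normalization again, centred arrays, a filter on low means, limma's trend and robust options, absolute differences of at least 1, the mean of a gene's probe sets, leaving out _s_at and _x_at sets, foxes left out singly or 9 to 11 together, another SD threshold, and NDUFA4 and NDUFA4L2 counted with complex IV; leaving out fox 2 was chosen after seeing the data.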

Additional observations from a re-analysis of the deposited data

How the results depend on the processing

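The direction of the 5 complex medians was the same under every alternative run. After quantile normalization again the medians were 1.42 over all members, 1.07 in complex I, 2.14 in II, 1.72 in III and 1.30 in V, 16 genes of complex I were higher, and foxes 9 to 11 were below foxes 1 to 8 for 9 members; COX8A reversed to −0.21. With probe sets ending _s_at or _x_at left out, 39 genes remained measured (21, 2, 6, 6 and 4 in complexes I to V): 24 were higher and 4 lower, with 15 higher in complex I, 2 in II and 1 in V, and medians of 1.64 over all, 1.63 in I and 1.43 in V. There NDUFA6 reversed to −0.76 and NDUFB6 to −0.0092. Lower genes numbered 1 after quantile normalization, with centred arrays and with the filter on low means, and 0 at an absolute difference of at least 1, where 2 probe sets were lower. Raising the SD threshold to 1 left 12 members, and 0.5 over foxes 1 to 8 alone left 20, or 17 without fox 2. With the mean of a gene's probe sets, foxes 9 to 11 were below the rest for 2 members. With each fox left out in turn, 44 to 50 genes were higher, with a median of 2.17 to 2.42. Of the 39 named members, 8 were newly called without foxes 9 to 11. No paired analysis was possible because there is only 1 control array. The control is 1 array with organ markers, the deposited table gives no background level, and array number limits all values.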
